A study of Drosophila melanogaster with 2 samples.

Results

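The Vps, CHMP and Atg genes of *Drosophila melanogaster* encode much of the machinery that sorts membrane proteins at endosomes and builds autophagosomes. They were taken as the protein-coding genes whose symbol starts with Vps, CHMP or Atg followed by a digit, which gave 48 of 13968 protein-coding genes on the 7 chromosome arms: 27 Vps genes, 1 CHMP gene (CHMP2B) and 20 Atg genes. Binding of Ada2b near their transcription start sites (TSSs) was read from peak lists of chromatin immunoprecipitation and sequencing (ChIP-seq). Ada2b is an adaptor protein of the SAGA coactivator, where it works beside Gcn5, an enzyme that acetylates histones. The material was whole embryos aged 0 to 18 h of a transgenic strain, Ada2b-GFP, with an insertion that targets Ada2b and produces an Ada2b-eGFP fusion protein, and the sample description states that the chromatin was precipitated with an antibody to GFP. The antibody field of the labels reads Ada2b, and which of them describes the reagent cannot be told from the labels. The single group had 2 biological replicates of the same strain, so there was no comparison between conditions, and a peak cannot be assigned to a cell type or to an hour of development. The control was not analysed here, and the lists give no read depth.

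Vps genes take their name from vacuolar protein sorting, and many were first found as yeast mutants that mislocalised vacuolar enzymes. ESCRT complexes pull ubiquitinated membrane proteins into vesicles inside the endosome, retromer and the GARP and EARP complexes return proteins from endosomes to the Golgi or the cell surface, and HOPS and CORVET tether endosomes and lysosomes for fusion. Atg proteins start autophagy, enlarge its double membrane and attach the ubiquitin-like protein Atg8 to it, and the finished autophagosome fuses with the same lysosomes. Many of these genes are expressed widely, and autophagy is also known for its part in the breakdown of larval tissues at metamorphosis in the fly.

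A promoter peak was defined as a peak with its summit within 500 bp of an annotated TSS of a gene, and a peak counted for every gene with a TSS in reach. In the conservative list, a thresholded list that the authors made from both replicates, 16 of 48 members had a promoter peak (33.3%, 95% Clopper-Pearson interval 20.4 to 48.4%), beside 17.5% of all protein-coding genes. These were 8 of 27 Vps genes (29.6%, interval 13.8 to 50.2%), CHMP2B, and 7 of 20 Atg genes (35%, interval 15.4 to 59.2%). Most of the peaks could not be given to the member alone: 13 of the 16 summits also lay within 500 bp of the TSS of a neighbouring gene. When a peak was given to the closest TSS alone, 7 members had one (14.6%), beside 13.1% of all genes. No test compared the members with other genes, and the intervals cover counting error only.

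Sequences around the summits of 6 of these peaks show the DNA that the results turn on: the strongest peak (CHMP2B), the strongest Vps peak (Vps33B), the strongest Atg peak (Atg2), 1 peak in a short gap between divergent genes (Vps36), and 2 peaks shared with no neighbour (Vps15 and Atg8a). Each runs 5′ to 3′ on the member's strand and was read from NCBI Release 6, the assembly called dm6, up to 75 bases each side of the summit and only where no exon is annotated. The CHMP2B sequence is chr3L:5139429-5139579 (plus strand), Vps33B is chr3R:25473232-25473382 (plus strand), and Atg2 is chr3L:2774019-2774169 (plus strand). Vps36 is chr3L:13513142-13513253 (minus strand), Vps15 is chr3R:9245946-9246096 (minus strand), and Atg8a is chrX:10767313-10767463 (minus strand). Capitals mark CGATA, the core recognised by the insulator protein BEAF-32, on either strand (TATCG on the strand shown).
CHMP2B: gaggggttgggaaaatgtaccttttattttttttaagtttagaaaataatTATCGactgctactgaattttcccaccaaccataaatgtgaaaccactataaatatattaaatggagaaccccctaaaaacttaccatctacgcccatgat
Vps33B: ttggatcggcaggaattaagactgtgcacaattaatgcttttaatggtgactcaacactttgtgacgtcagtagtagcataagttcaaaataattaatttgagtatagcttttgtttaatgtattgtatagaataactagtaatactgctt
Atg2: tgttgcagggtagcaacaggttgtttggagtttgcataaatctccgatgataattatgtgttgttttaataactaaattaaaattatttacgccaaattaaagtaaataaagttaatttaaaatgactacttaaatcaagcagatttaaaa
Vps36: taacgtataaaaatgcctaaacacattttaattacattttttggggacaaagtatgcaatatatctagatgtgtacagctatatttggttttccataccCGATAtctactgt
Vps15: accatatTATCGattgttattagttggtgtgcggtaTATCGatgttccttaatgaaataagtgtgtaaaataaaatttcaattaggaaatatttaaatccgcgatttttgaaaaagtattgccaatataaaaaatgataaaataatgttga
Atg8a: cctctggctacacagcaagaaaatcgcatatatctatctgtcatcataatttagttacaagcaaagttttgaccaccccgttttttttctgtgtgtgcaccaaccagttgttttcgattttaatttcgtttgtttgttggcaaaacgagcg

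The 151 bases around the summits of the 16 members' peaks had a median GC content of 30.5%, beside 33.1% over the 1959 promoter peaks of all genes. CGATA lay in 6 of the 16 windows (37.5%; CHMP2B, Vps36, Vps15, Vps29, Vps45 and Atg9), beside 28.3% of all promoter peaks, and the Vps15 sequence above holds 2 matches. The longer DRE motif TATCGATA, which contains CGATA on both strands, was in 0 of 16 windows (4.24% of all promoter peaks), as were the motif 1 core GGTCACAC (1.74%), the E-box CACGTG of MiT/TFE factors (1.94%) and the E-box CAGCTG (7.40%). GAGAG, a match to the GAGA factor site, was in 1 window, at Vps28 (6.25%), beside 13.9% of all promoter peaks.

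**Figure D1:**
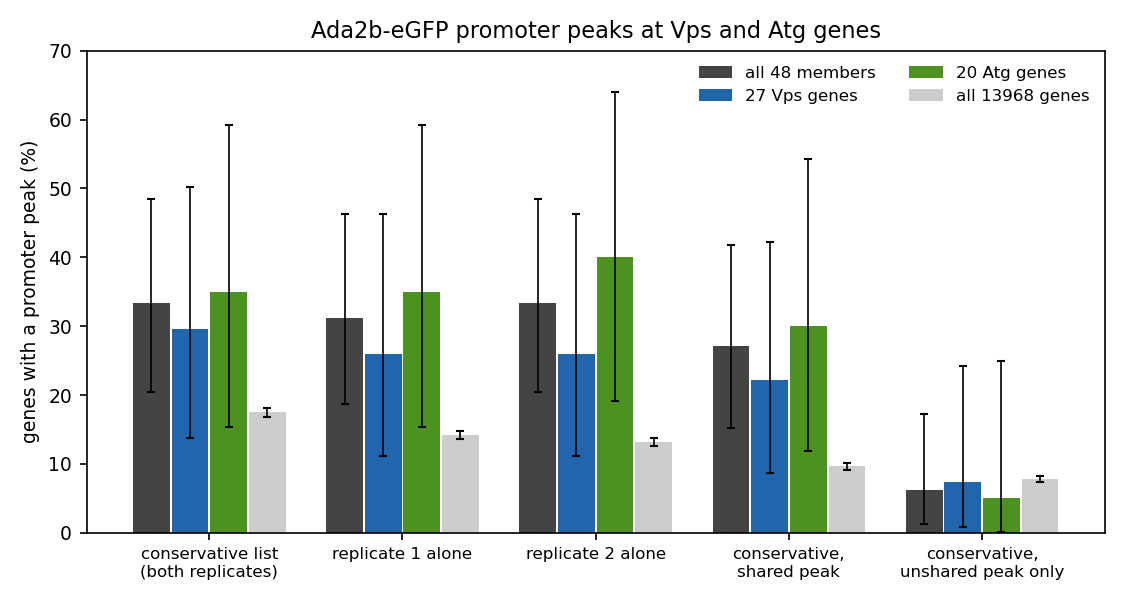
Percent of genes (y axis) with a promoter peak in the conservative list, in each replicate's own list, and with shared or only unshared conservative peaks (x axis), for all 48 members, the 27 Vps genes, the 20 Atg genes and all 13968 protein-coding genes. Bars are shares with 95% Clopper-Pearson intervals; members stood at 33.3% beside 17.5% of all genes in the conservative list, and at 6.25% beside 7.83% for peaks shared with no neighbour.

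The lists made from a single replicate gave nearly the same counts. Replicate 1's thresholded list held promoter peaks for 15 members (31.3%; 7 Vps, CHMP2B and 7 Atg genes), beside 14.2% of all genes. Replicate 2's list held them for 16 members (33.3%; 7 Vps, CHMP2B and 8 Atg genes), beside 13.2% of all genes. The mean over the replicates was 32.3% ± 1.47 for the members and 13.7% ± 0.714 for all genes (SD, n = 2 each). In both replicates' own lists at once were 13 members (27.1%; 5 Vps, CHMP2B and 7 Atg genes), beside 10.8% of all genes. Those 13 made up 86.7% of the members in replicate 1's list and 81.3% of those in replicate 2's list, and over all genes the same shares were 76.0% and 81.8%. A further thresholded list of the series held 17 members (35.4%), beside 17.9% of all genes. It lacked Vps28 and added Atg12 and Vps60.

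All of the 7 Atg genes in the conservative list were in both replicates' lists, as was CHMP2B, while 5 of the 8 Vps genes were. Over all genes, 2444 had a conservative promoter peak. In both replicates' lists were 1507 genes, whether or not they were in the conservative list. The overlap was not tested between the prefixes. Vps29 and Vps45 were in replicate 2's list only, and Vps28 was in neither. In the other direction, Atg12 had a promoter peak in replicate 2's list, and Vps13D and Vps60 had one in replicate 1's list, but none of these 3 was in the conservative list. The remaining 29 members were in no thresholded list.

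CHMP2B, a subunit of ESCRT-III, the filament that cuts the neck of the forming endosomal vesicle, had the strongest peak of all members. Its signal, the value that the authors' peak caller gave and that can be compared only within a list, was 1281 in the conservative list, 706 in replicate 1 and 578 in replicate 2. That put CHMP2B 11th of the 2444 genes with a conservative promoter peak. Its percentile among the genes with a promoter peak in the same list was 99.4 ± 0.181 over the replicates (SD, n = 2). The summit lay 115 bp upstream of CHMP2B and 109 bp upstream of Tcs5, a gene on the opposite strand for a subunit of a tRNA-modifying complex. None of the ESCRT-III genes with a Vps name, Vps2, Vps20, Vps24 and Vps60, nor the ATPase gene Vps4, was in the conservative list. Vps60 had a signal of 33.6 in replicate 1, at percentile 2.72, shared with anchor. A weak conservative peak near Vps24 (signal 52.3) had its summit 510 bp upstream of the TSS, just past the window. Another gene, Suv3, has a TSS 608 bp from that of Vps24, so this peak need not belong to Vps24.

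The ESCRT-I and ESCRT-II complexes, which gather cargo before ESCRT-III acts, had 1 bound gene each out of the 2 with a Vps name. For ESCRT-II it was Vps36, with a signal of 207 in the conservative list, 97.5 in replicate 1 and 110 in replicate 2. Its peak lay in a gap of 142 bp between the TSS of Vps36 and that of Liprin-beta, a synaptic scaffold gene on the other strand. For ESCRT-I it was Vps28, with a conservative signal of 60.3 at percentile 15.2, and its peak was absent from both replicates' own lists. Of the pair, Vps36 was the one in each replicate's own list. The other Vps-named subunits, Vps37B and Vps25, were in no thresholded list, and the ESCRT-I genes TSG101 and Mvb12 and the ESCRT-II gene lsn, which have other names, were not in the conservative list.

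Among the recycling complexes, GARP and EARP had 2 bound subunits of 4, beside 17.5% of all genes. Neither of the 2 kept its peak when a peak was given to the closest TSS alone. Vps50, the subunit particular to EARP, had a signal of 250.3 in the conservative list, 130.2 in replicate 1 and 121 in replicate 2, and shared its peak with PIG-A, which makes glycosylphosphatidylinositol anchors. Vps52, common to GARP and EARP, had 92.6 in the conservative list, 35.9 in replicate 1 and 56.6 in replicate 2. The replicates ranked Vps52 far apart, at percentiles 4.34 and 47.7, the widest spread of any member in both lists. Its peak was shared with Elp4 of the Elongator complex. Retromer had 1 bound subunit of 3: Vps29, with a signal of 79.7 in the conservative list and 41.2 in replicate 2, next to Tfb4 of the basal transcription factor TFIIH with its TSS 89 bp away. The retromer genes Vps26 and Vps35 were in no thresholded list.

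Of the 6 Vps-named genes of HOPS, CORVET and the related Vps33B module, 1 was bound, Vps33B. Of 3 further HOPS and CORVET genes with other names, car was bound and dor and lt were not. The signal of Vps33B was 355 in the conservative list, 182 in replicate 1 and 174 in replicate 2, the second strongest among members, at percentile 90.4 ± 1.98 over the replicates (SD, n = 2). The summit was 183 bp upstream of Vps33B and 249 bp upstream of Fur1, a furin protease gene on the opposite strand. Vps33B was thus 1 of the 4 members with a shared peak whose own TSS was the nearer one. Vps8, Vps11, Vps16A, Vps16B and Vps39 were in no thresholded list. Vps45, which encodes a partner of membrane fusion proteins at the endosome, had the weakest conservative peak of any member, at 52.8 and percentile 7.12, with 31.8 in replicate 2 and no peak in replicate 1's list. It shared the peak with CG9393.

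The Atg genes with a conservative promoter peak, 7 of 20 (35%, beside 17.5% of all genes), belonged to several steps of autophagy. When a peak was given to the closest TSS alone, 2 of the 20 kept one, beside 13.1% of all genes. The groups by complex, above and below, are small, and their counts were not tested against the share of all genes. At the start of the pathway, 1 of 4 genes of the Atg1 kinase complex was bound: Atg17, its scaffold, with a signal of 179 in the conservative list, 100.05 in replicate 1 and 84.6 in replicate 2, shared with Xe7. Vps15, the regulatory subunit of the class III phosphatidylinositol kinase, was the bound 1 of 3 members in that complex, with 99.9 in the conservative list, 57.6 in replicate 1 and 47.5 in replicate 2. Its replicates sat at nearly the same rank, at percentile 36.4 ± 0.0981 (SD, n = 2), and no other gene had a TSS within reach of the summit. Atg6 and Atg14 of the same complex were in no thresholded list.

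For the growth of the membrane, Atg9, which moves lipids between the leaflets of the membrane, and Atg18a, which binds phosphatidylinositol phosphate, were both bound, and Atg18b was not. Atg18a had a signal of 149 in the conservative list, 78.4 in replicate 1 and 71.6 in replicate 2, and shared its peak with the nuclear receptor gene ERR. Atg9 had 117 in the conservative list, 65.6 in replicate 1 and 49.3 in replicate 2, and shared its peak with CG7747. Atg2, which carries lipids from the endoplasmic reticulum, was the bound 1 of 4 bridge-like lipid transfer genes, with 234 in the conservative list, 134 in replicate 1 and 102 in replicate 2. The summit lay 244 bp upstream of Atg2 and 87 bp upstream of CG12093. The other 3 genes of that family, Vps13, Vps13B and Vps13D, were not in the conservative list, and Vps13D had a signal of 36.0 in replicate 1, shared with CG10973.

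Of the 10 genes that attach Atg8 and Atg12 to their targets, 3 were bound. Atg7, which activates both proteins, had a signal of 158 in the conservative list, 95.4 in replicate 1 and 61.1 in replicate 2, shared with Sec6 of the exocyst. Atg4b, a protease that trims Atg8, had 153 in the conservative list, 87.1 in replicate 1 and 61.0 in replicate 2, shared with Hibch, which encodes an enzyme of valine breakdown. Atg8a, the ubiquitin-like protein itself, had 81.9 in the conservative list, 45.0 in replicate 1 and 37.3 in replicate 2. Its peak was shared with no other gene and lay 82 bp upstream of an internal TSS, 950 bp from the most upstream of its 3 TSSs. Counting only the most upstream TSS of each gene dropped Atg8a and left 15 members. Atg12, which is joined to Atg5, had a signal of 68.4 in replicate 2, at percentile 59.7, next to CG5645.

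**Figure D2:**
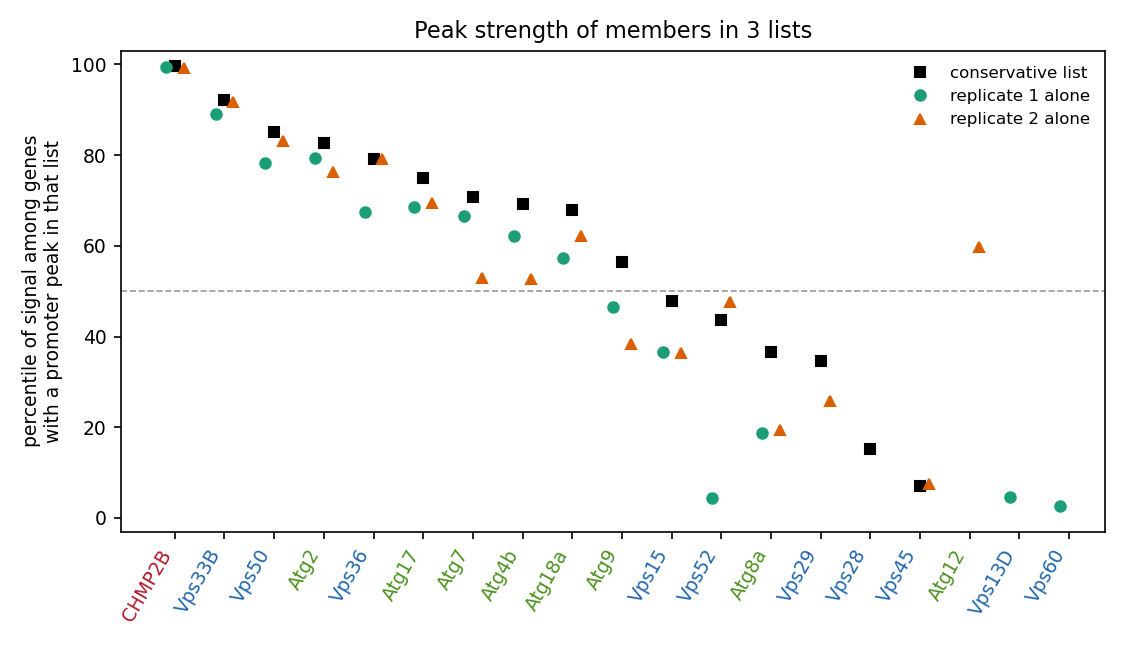
Percentile of each member's strongest promoter peak by signal (y axis) among the genes with a promoter peak in the same list, for the 19 members in any thresholded list (x axis), in the conservative list and in each replicate alone; the dashed line is percentile 50. CHMP2B stands at the top in all 3 lists, Vps52 at percentiles 4.34 and 47.7 in replicates 1 and 2, and Vps28 has no point from a replicate alone.

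The members' peaks were not all strong. Among the 2444 genes with a conservative promoter peak, the 16 members had a median percentile of 68.6 (range 7.12 to 99.5), and 10 of them lay above the median gene. Their median signal was 151, beside 104 over all genes with a promoter peak. The Atg genes had a median percentile of 69.2, with 6 of 7 above the median gene, and the Vps genes 45.8, with 3 of 8 above it. The difference between the prefixes was not tested. All 16 conservative summits lay upstream of the member's TSS, at a median of 122 bp (range 11 to 250 bp), beside 87.6% of all genes with a promoter peak and a median of 136 bp upstream. In replicate 1's list 13 of 15 members had an upstream summit (86.7%), beside 87.6% of all genes with a peak there. In replicate 2's list 16 of 16 did, beside 89.6%. The members' median percentile was 62.1 in replicate 1's list and 56.3 in replicate 2's.

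Sharing with a neighbour was the common arrangement. A peak shared with another gene was found at 13 of 48 members (27.1%), beside 9.67% of all genes, while 3 members (6.25%; Vps15, Atg8a and Vps28) had only an unshared peak, beside 7.83% of all genes. Among genes with a promoter peak, the strongest was shared at 13 of 16 members (81.3%; 6 of 8 Vps, CHMP2B and 6 of 7 Atg genes), beside 54.3% of the 2444 genes. Counted by peak, 13 of the members' 16 promoter peaks were shared (interval 54.4 to 96.0%), beside 35.0% of the 1959 promoter peaks of all genes (interval 32.9 to 37.1%). These shares by peak are not like for like. The members' peaks were reached through genes, and a shared peak can be reached through each gene that shares it. The share by gene, 54.3%, is the closer comparison, and it lay close to the lower limit of the members' interval. In each of the 13 cases the other gene lay on the opposite strand, beside 90.2% of all genes with a shared strongest peak. The gap between the TSSs had a median of 241 bp (range 89 to 432 bp), beside 272 bp over all such genes.

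**Figure D3:**
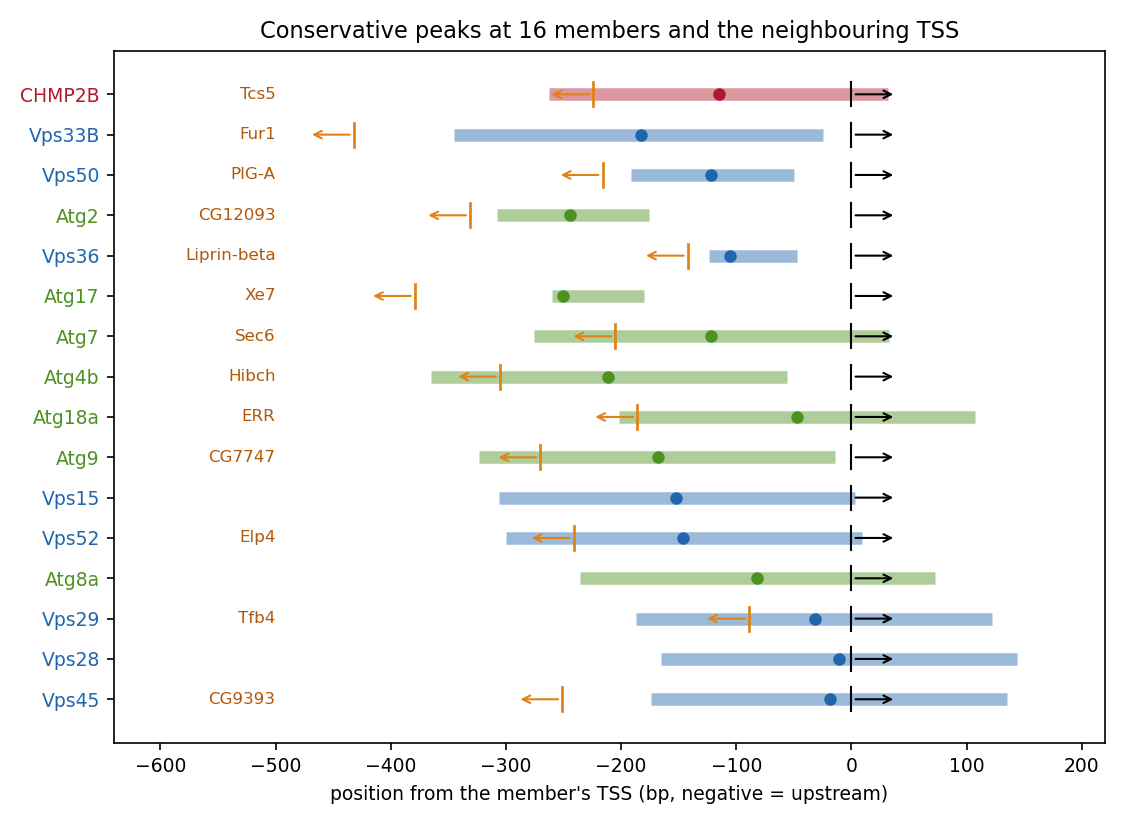
Conservative peaks (bars) and their summits (points) at 16 members, ordered by signal from the strongest at the top, by position from the member's TSS (x axis, bp, negative upstream). The black arrow is the member and the orange arrow the TSS and strand of the gene that shares the peak; 13 of the 16 rows have such a gene, always on the opposite strand, and 3 (Vps15, Atg8a and Vps28) have none.

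In 9 of the 13 shared peaks (69.2%) the summit was closer to the neighbour's TSS than to the member's, beside 48.3% over all genes with a shared strongest peak. These were the peaks of CHMP2B, Vps36, Vps50, Vps52, Atg2, Atg4b, Atg7, Atg9 and Atg17. In the other 4, Vps29, Vps33B, Vps45 and Atg18a, the member was nearer. The difference was small at CHMP2B, where the distances were 115 and 109 bp, and larger at Atg2, where they were 244 and 87 bp. For Vps29 and Vps45 the order was reversed in replicate 2's list, the only replicate list that held them. There the summit lay 46 bp from Vps29 and 43 bp from Tfb4, and 152 bp from Vps45 and 99 bp from CG9393. Which of the paired genes a peak serves cannot be told from these lists.

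Many of the members have close neighbours. Another protein-coding gene had a TSS within 1000 bp of 35 of 48 members (72.9%; 18 of 27 Vps, 16 of 20 Atg genes and CHMP2B), beside 42.8% of all genes. Among genes with such a neighbour, 15 of 35 members had a conservative promoter peak (42.9%, interval 26.3 to 60.6%), beside 27.1% of all genes. Among genes without one, 1 of 13 members had a peak (7.69%, Vps28), beside 10.3% of all genes. The part that this arrangement plays in the members' higher share of peaks was not tested.

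The ranked lists hold candidate peaks above and below the threshold, each with an irreproducible discovery rate (IDR), a measure of how poorly a peak's rank repeats. In the ranked list of both replicates, 39 of 48 members had a candidate within 500 bp of a TSS (81.3%; 21 of 27 Vps, 17 of 20 Atg genes and CHMP2B), beside 70.7% of all genes. Replicate 1's ranked list gave 33 members (68.8%), beside 61.9% of all genes, and replicate 2's gave 32 (66.7%), beside 57.3%. Candidates thus lay at most genes, and their values differed more than their presence did. The strongest candidates of the 39 members had a median −log10 IDR of 1.20, beside 0.264 over all genes with a candidate. Between −log10 IDR 1 and 2, just under the threshold, lay 5 of the 39 members (12.8%), beside 7.19% of all genes with a candidate, and below 1 lay 18 (46.2%), beside 67.6%.

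Each of the 4797 conservative peaks was past a −log10 IDR of 2 in the ranked list of both replicates, but the conservative list did not hold every peak past it: 2490 genes had a candidate past that threshold near a TSS, and 2444 had a conservative promoter peak. For the members both counts were 16. The threshold divided members with close values. Vps45 was just inside it at 2.05, while Atg12 was just outside at 1.9996 with a signal of 96.8, higher than that of Vps45, and Vps60 was outside at 1.86 with a signal of 49.6. Next came Atg6 at 1.36, whose TSS is 1 bp from that of Pisd, then Vps13B at 1.20, beside eIF2Balpha, and Vps13 at 1.13, with the TSS of boca 71 bp away. Vps13D stood at 0.841, Vps16A at 0.744 and Atg14 at 0.388. Ordered by signal, the members after Vps60 were Vps13 (46.1), Vps13D (40.01), Atg5 (38.2), Atg6 (32.1), Vps8 (31.0) and Vps35 (29.2). Vps13, Vps13D and Atg6 thus stood high by either measure. A stricter threshold, a −log10 IDR of 2.3, left 15 members and dropped Vps45. In the ranked list of both replicates, 9 members had no candidate: Atg1, Atg10, Atg18b, Vps11, Vps16B, Vps24, Vps26, Vps37B and Vps51. Of these, 5 had none in any ranked list: Atg1, Atg10, Atg18b, Vps11 and Vps24.

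**Figure D4:**
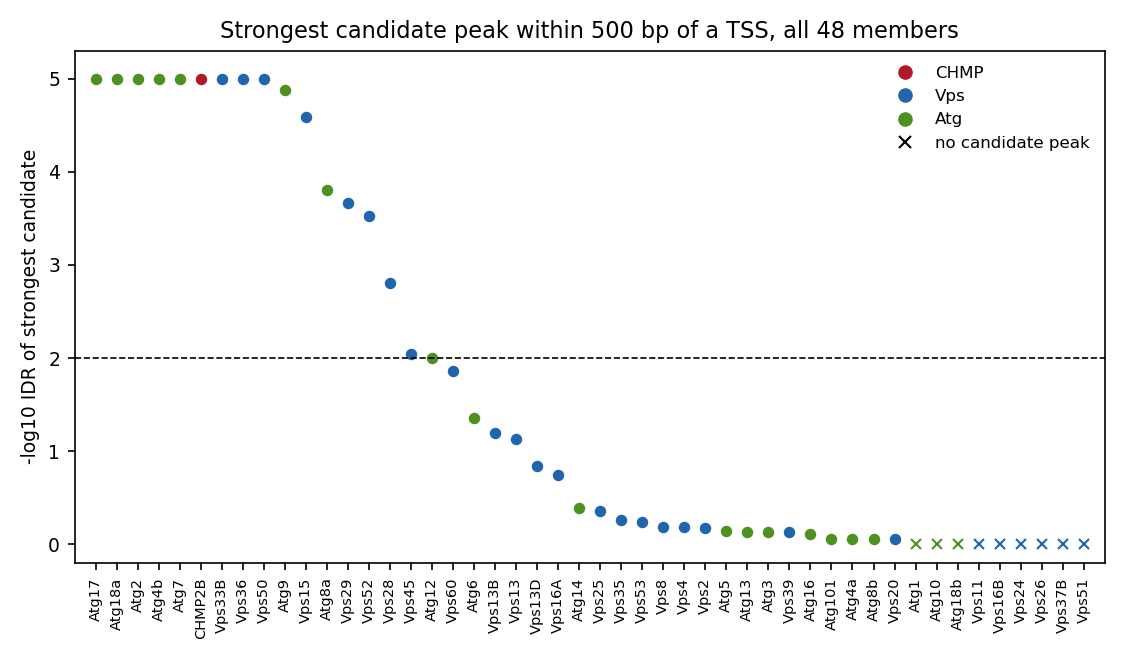
Strongest candidate peak within 500 bp of a TSS in the ranked list of both replicates, for all 48 members (x axis), as −log10 IDR (y axis, capped at 5 in the deposited values). The dashed line is the threshold of 2; 16 members lie above it, Atg12 and Vps60 lie just below, and crosses mark the 9 members with no candidate.

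Conservative peaks also lay near or inside a few members outside the promoter window. A second summit lay 973 bp upstream of the Atg18a TSS, with a signal of 90.9. The TSS of ERR, on the opposite strand, is 186 bp from that of Atg18a on the same side. This summit thus lay past the start of ERR and nearer to ERR than to Atg18a. Inside genes, Atg7 had a peak 3542 bp downstream of the TSS (signal 123), Atg17 one 3091 bp downstream (49.2) and Atg1 one 11864 bp downstream (57.7). Atg1 encodes the kinase that starts autophagy, and this internal peak was its only one in the conservative list.

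Promoter letters were searched in the 300 bases from 250 before to 50 after the most upstream TSS, on both strands. The DRE TATCGATA was in 12 of 48 members (25%), beside 9.36% of all promoters, and in 4 of 16 bound and 8 of 32 unbound members. Over all genes it was in 13.7% of bound and 8.43% of unbound promoters, and the difference between these splits was not tested. CGATA, which overlaps the DRE, was in 33 members (68.8%), beside 47.3% of all promoters. CAGCTG was in 12 members (25% beside 17.6%), GGTCACAC in 4 (8.33% beside 7.69%) and GAGAG in 7 (14.6% beside 29.7%). CACGTG, the E-box bound in mammals by regulators of lysosome and autophagy genes such as TFEB, was in 1 member, Atg4a (2.08%), beside 4.20% of all promoters. A match is a description of letters and not of a bound site.

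Genes of the same pathways with other names were counted from a list of 31, of which 30 were found. A conservative promoter peak lay at 6 of the 30 (20.0%, interval 7.71 to 38.6%), near the 17.5% of all genes, and 4 of the 6 peaks were shared with a neighbour. Replicate 1's list and replicate 2's list held 4 each (13.3%), beside 14.2% and 13.2% of all genes. Among them was Uvrag, a partner of the class III phosphatidylinositol kinase, in replicate 1 alone (signal 17.7). In both lists were 2 (6.67%), beside 10.8% of all genes: scat, the GARP subunit Vps54, and Snap29, a fusion protein of autophagosomes. The scat peak had a signal of 194 in the conservative list, 106 in replicate 1 and 81.8 in replicate 2, and it was shared with FucTB. Snap29 had 190 in the conservative list, 94.6 in replicate 1 and 94.2 in replicate 2, shared with CG5554. These signals fell within the range of the members' peaks.

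The other 4 were weaker. Epg5, a tether for autophagosome fusion, had a conservative signal of 80.1 and 49.2 in replicate 2. The HOPS subunit gene car had 79.7 and 41.4 in the same lists, shared with Grip84. Stam, an early ESCRT partner, had 62.1 in the conservative list and 36.3 in replicate 1, shared with aurB, and Syx17, a fusion protein of autophagosomes, had 70.7 in the conservative list and a peak in neither replicate's own list. By group, 1 of 9 ESCRT partners, 1 of 3 HOPS and CORVET genes, the GARP gene, 3 of 10 genes for autophagy and fusion, and 0 of 7 sorting nexin and WASH genes were bound. Snx3, a sorting nexin, had a candidate at a −log10 IDR of 3.07 in the ranked list of both replicates, past the threshold and near the 3.33 of car, but had no conservative promoter peak. With scat, 3 of the 5 GARP and EARP genes counted had a conservative promoter peak, beside 17.5% of all genes. All 3 of these peaks were shared with a neighbour. The groups are small, and their counts were not tested.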

How the data were processed

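Peak lists from ChIP-seq (anti-GFP, per the labels' description) of 2 biological replicates were used: 4 lists of the series and 2 of each replicate, 8 in all. Notes deposited by the authors state that series lists derive from the dm6 alignments of both replicates plus a control, and each replicate's lists from its own alignments. Neither aligner nor peak caller is named there, and read depth is not given in the sources used here. Peaks numbered 4797 in the conservative list, 3762 in replicate 1's thresholded list, 3020 in replicate 2's, 4990 in the further thresholded list and 92003 in the ranked list of both replicates. The deposited score is the IDR rescaled by the authors, with a lowest value of 830 in each thresholded list. The deposited signal comes from the authors' peak caller without scaling across lists, so it was ranked inside each list. The ranked lists also have a deposited −log10 IDR.

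Genes and TSSs came from Ensembl release 115, and peaks on the 7 arms were used; a promoter peak had its summit within 500 bp of a TSS. A peak was called shared when 2 or more genes had a TSS in that window. Intervals are 95% Clopper-Pearson. With 1 group there was no test of a difference and no p-value. The named genes were, by rule, every member with a promoter peak in a thresholded list or a conservative summit between 501 and 1000 bp of a TSS, the 5 next members in the ranked list, every gene sharing such a peak, and every other pathway gene with a promoter peak. Genes named as lacking a peak complete their complex, and Atg1 and Atg4a were named after their values were seen. The members, the pathway list, the motifs and the alternatives were chosen with earlier results of these data known. The alternatives were other windows, TSS choices, lists, thresholds, prefixes matched without regard to letter case, and either replicate alone. The joining of summits to TSSs was tested on simulated data with planted summits. Computation used matplotlib 3.10.9, scipy 1.17.1, pandas 2.3.3, numpy 2.4.6 and Python 3.11.15.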

Additional observations from a re-analysis of the deposited data

How the results depend on the processing

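Across 11 alternatives the number of members with a promoter peak ran from 7 to 17, and the members' share was above that of all genes in 11 of 11. The alternatives reuse the same genes and largely the same peaks, so they are not separate evidence. With the closest TSS alone the shares were near each other, 14.6% beside 13.1%. Of 64 alternative values, over the whole set, the prefixes, the shared peaks and the other pathway genes, 58 stayed within 1.5 times of the value reported. Of the 6 that moved, 4 came from giving a peak to the closest TSS alone: 7 members, 5 Vps genes, 0 CHMP genes and 2 Atg genes. Using peaks at or above the median signal left 5 Vps genes and 2 of the other pathway genes. Without 1 replicate or the other, the count was 15 to 16. The prefixes were matched with regard to letter case. Ignoring case gave 49 genes, of which the same 16 had a promoter peak. No paired analysis was possible because there was 1 group and no test. Read depth is not known from these lists, so a gene without a peak is one not detected, and 48 genes give wide intervals.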
